A study of Mus musculus with 30 samples.

Results

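The 53 genes described here are interferon response genes of the mouse. They were listed with results of these libraries known, mainly how genes moved across the 4 groups labelled HL-1, so their values in those groups are a description and carry no test. They were 53 of the 54532 genes in the HL-1 count table and 53 of the 20764 genes in the heart count table. After the filter on low counts, 50 of them could be fitted in the HL-1 libraries, where Mx1, Gbp5 and Iigp1 had too few counts, and all 53 could be fitted in the hearts.

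The study sequenced mRNA from 30 libraries, 3 per group, to ask how NAD+ bears on the transcriptome of ageing hearts. HL-1, an established line of atrial muscle cells from a C57BL6/J mouse, is widely used as a model of cardiomyocytes. It was left untreated, given FK866 (an inhibitor of NAMPT, the salvage enzyme for NAD+), given FK866 with nicotinamide riboside (NR, an NAD+ precursor that does not need NAMPT), or given FK866, NR and Ex527 (an inhibitor of the NAD+-dependent deacetylase SIRT1). The 18 hearts came from female mice labelled C57BL6, a mixed J and N background by the study's methods: young hearts from 2-month-old mice without treatment, old H2O hearts from 12-month-old mice on plain water, and old NR hearts from 12-month-old mice that drank NR at 3 g/L from the age of 2 months, each taken at Zeitgeber time (ZT) 10 or ZT22, hours after lights on. The study's methods describe cell replicates as separately cultured wells and heart replicates as individual mice, and the wells are all of 1 cell line, so that p-values for cells measure the spread between wells. Total counts ranged from 21337922 to 35000109 per HL-1 library (median 25529294) and from 3922137 to 7562215 per heart (median 5534659). A single count was therefore worth at most 0.0464 CPM (the count divided by the library total in units of 1e6 counts, with the total scaled by the trimmed mean of M values) in an HL-1 library and at most 0.266 CPM in a heart.

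Cells read interferon through a relay. Type I interferons bind IFNAR1 and IFNAR2, the kinases JAK1 and TYK2 phosphorylate transcription factors such as STAT2, which act with IRF9 in a complex that binds interferon-stimulated response elements in promoters. The genes switched on by it include sensors of viral RNA, the ubiquitin-like modifier ISG15, IFIT and OAS proteins that act on foreign RNA, and many other antiviral effectors. Interferon gamma acts instead at gamma-activated sites, and its best known targets are the guanylate-binding proteins, the immunity-related GTPases and the proteins that load antigens on MHC class I.

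The libraries labelled HL-1 went against their label as cardiomyocytes. Of 10 cardiomyocyte markers, 3 had enough counts to be fitted, and the 10 summed to 1.27 to 4.78 CPM per library, compared with 8112 to 11640 CPM in hearts. Actc1, the actin of cardiac muscle, had no count in any library. The mean number of counts per library was 1.83 for Myh6 and 0.583 for Nppa, the atrial myosin and natriuretic peptide genes. The 6 fibroblast markers summed to 2543 to 4142 CPM, most of it from the collagen gene Col3a1. These libraries are called HL-1 below only because they are labelled so.

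A pair of libraries stood apart from the rest. Replicate 1 of FK866 with NR stood apart by transcripts of macrophages and of heart. The macrophage gene Lyz2 stood at 9.6 CPM there, where 10 of the other libraries had no count and 1 had 0.0891 CPM, and the summed macrophage markers stood at 31.2 CPM there and at 11.3 to 18.2 CPM elsewhere. The complement genes C1qa, C1qb and C1qc measured 0.974, 0.881 and 1.16 CPM in it and had no count in the other 11 libraries, and Ryr2, the calcium release channel of heart muscle, measured 3.57 CPM and at most 0.141 CPM elsewhere, while Actc1 had no count. Where these transcripts came from was not tested. Among the hearts, replicate 2 of old H2O at ZT10 had the highest level of all 18 hearts for 27 of the 53 listed genes and for all 9 GTPases, while it was highest for 3.24% of all genes tested.

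Promoter windows of the RefSeq annotation, from 250 bases before to 50 bases after a transcription start, were found for 40 of the 53 genes (49 windows). The letters GAAANNGAAA, the core of the interferon-stimulated response element, were searched on both strands and stood in a window of 20 of the 40 genes (50%), compared with 3.99% of the 27025 genes with a window. TTCNNNGAA, the letters of a gamma-activated site, stood in 13 of the 40 (32.5%) and in 9.55% of all genes. GGGANNTTCC, a kappa B site bound by NF-kB, stood in 5 of the 40 (12.5%) and in 1.63% of all genes. The core and the gamma-activated site shared a window in 7 genes and overlapped each other in 1, Bst2, and the kappa B match overlapped another motif in Ifit2. A match is a description of letters and not evidence of binding.

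The stretches below carry the core, in capitals, in 3 genes that the HL-1 results below turn on, printed 5' to 3' along the gene's strand on GRCm38.p6. They lie at chr4:156200845-156200926 on the minus strand for Isg15, chr19:34640755-34640843 on the plus strand for Ifit1 and chr12:26456533-26456602 on the minus strand for Rsad2. In Isg15 the core recurred 3 times in overlapping copies that end 68, 62 and 56 bases before the start, in Ifit1 it stood at 94 and 75 bases before the start, and in Rsad2 it stood once, at 110 bases. In Ifit1 and Rsad2 it reads on the opposite strand.
Isg15: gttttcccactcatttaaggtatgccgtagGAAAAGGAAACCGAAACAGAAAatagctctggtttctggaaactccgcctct
Ifit1: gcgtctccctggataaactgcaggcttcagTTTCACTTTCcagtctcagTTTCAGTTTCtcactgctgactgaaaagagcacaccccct
Rsad2: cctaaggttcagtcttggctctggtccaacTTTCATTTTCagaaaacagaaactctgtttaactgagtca

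Ifit3, Oas1a and Irgm2 are shown as a contrast, chosen after their values were seen, because all 3 hold the core while their levels moved differently. Their stretches lie at chr19:34583343-34583446 on the plus strand, chr5:120907526-120907575 on the minus strand and chr11:58214883-58214952 on the plus strand.
Ifit3: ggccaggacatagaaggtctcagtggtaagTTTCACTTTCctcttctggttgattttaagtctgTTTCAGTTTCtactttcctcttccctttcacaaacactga
Oas1a: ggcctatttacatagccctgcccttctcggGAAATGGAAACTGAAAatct
Irgm2: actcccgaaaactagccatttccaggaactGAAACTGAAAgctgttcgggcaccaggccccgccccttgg

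Untreated HL-1 libraries already held transcripts of most listed genes. Per length, the highest levels were those of Bst2, which tethers budding virus to the cell surface, at 62.7 ± 9.30 FPKM (fragments scaled by gene length and library total; SD, n = 3), Oasl1, an OAS-like translation regulator, at 59.1 ± 2.28 FPKM, and Isg15 at 22.4 ± 2.56 FPKM. The median over the 53 genes was 1.69 FPKM, 22 lay under 1 FPKM and 6 lay over 10 FPKM. The lowest were the 3 genes that could not be fitted, Iigp1 with no count in the untreated libraries, Gbp5 at 0.00713 FPKM and Mx1 at 0.0320 FPKM. Their counts did not pass 6 in any of the 12 libraries, which is too few to compare groups.

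With FK866, 19 of the 50 genes that could be fitted passed the call rule (edgeR adjusted p under 0.01 and more than 1.5-fold), all higher, and 0 passed it lower. Of all 14760 genes tested, 2.09% were higher and 2.5% were lower by that rule. Because this contrast helped to choose the genes, the count is a description. The fold change was above 0 on the log2 scale for 46 of the 50, with a median of 0.644 compared with 0.0157 over all genes tested. All 3 FK866 libraries lay above all 3 untreated libraries for 32 of the 50, where 18.7% of all genes did so, and below them for 1, Irf1, where 17.9% did so. For 24 of the 50 the FK866 libraries lay above all 9 other libraries (6.83% of all genes). Ifi44, which is among the 50, the 46, the 32 and the 24, passed the filter on low counts only through its FK866 libraries, so it was bound to lie higher there. Summed over the 53 genes, the level was 850 to 886 CPM in untreated libraries, 1122 to 1149 CPM with FK866, 902 to 932 CPM with FK866 and NR, and 900 to 966 CPM with Ex527 added.

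**Figure D1:**
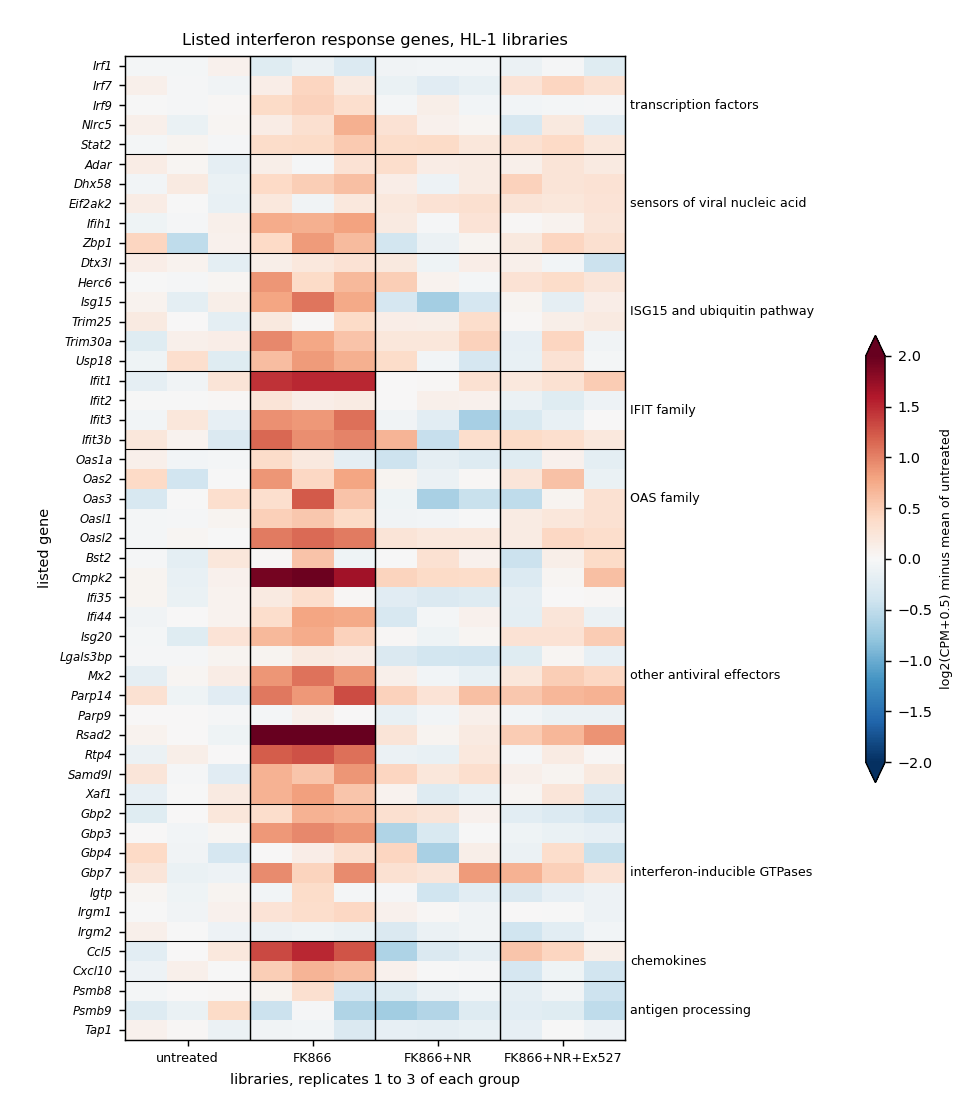
Heat map of the 50 listed genes with enough counts in HL-1 libraries, grouped by role (rows), in the 12 libraries (columns, 3 per group). Colour is log2(CPM + 0.5) minus the mean of the 3 untreated libraries, on a scale from -2 to 2. The FK866 libraries lay above all 9 other libraries for 24 of the 50 genes, where 6.83% of all genes did so. These values helped to choose the genes, and Ifi44 was bound by the filter to lie higher with FK866.

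Among the 5 transcription factors none passed the rule with FK866, with a median log2 fold change of 0.404. Irf7, which drives type I interferon genes, measured 6.95, 6.29 and 6.06 CPM untreated, 7.09, 8.84 and 7.37 CPM with FK866, 5.8, 5.42 and 5.76 CPM with FK866 and NR, and 7.86, 8.79 and 8.09 CPM with Ex527 added. The FK866 libraries stood just above the untreated ones, by 0.27 ± 0.11 on the log2 scale (SE, as for every fold change here), and the Ex527 libraries were as high. Irf9, the DNA-binding partner of STAT2, measured 15.2, 15.2 and 15.7 CPM untreated and 20.1, 21.3 and 19.5 CPM with FK866, a log2 fold change of 0.40 ± 0.07 without overlap. With NR it measured 15, 16.7 and 14.7 CPM and with Ex527 14.7, 14.9 and 15.2 CPM, back among the untreated values.

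Stat2, the activating subunit, kept its level when NR was added. It measured 29.7, 31.8 and 29.8 CPM untreated, 39.4, 40 and 43.8 CPM with FK866, 39.4, 39.7 and 35.7 CPM with FK866 and NR, and 37.7, 40.1 and 35.6 CPM with Ex527 added. All treated groups thus lay above the untreated one, and NR changed the FK866 level by -0.10 ± 0.07. Irf1, which acts early after interferon gamma, went the other way with FK866, from 71, 71.6 and 77.6 CPM to 61.7, 67.6 and 60.4 CPM (log2 fold change -0.21 ± 0.07). Nlrc5, the activator of MHC class I genes, had a log2 fold change of 0.49 ± 0.21.

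Of the 5 sensors of viral nucleic acid, Ifih1 passed the rule. Ifih1, whose protein MDA5 binds long double-stranded RNA, measured 16.6, 17.4 and 18.9 CPM untreated, 29.7, 29.2 and 30.9 CPM with FK866, 20, 17.4 and 21.4 CPM with FK866 and NR, and 17.9, 18.6 and 21 CPM with Ex527 added. The FK866 libraries stood alone, 0.77 ± 0.09 above untreated on the log2 scale and 0.61 ± 0.09 above FK866 with NR. Adar, which edits double-stranded RNA, overlapped between groups, at 44.3, 41.1 and 35 CPM untreated and 43.2, 39.3 and 49.1 CPM with FK866 (0.13 ± 0.10). The RNA sensor Dhx58 and the nucleic acid sensor Zbp1 had log2 fold changes of 0.54 ± 0.14 and 0.73 ± 0.27, and the kinase Eif2ak2 0.12 ± 0.09.

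Isg15, Herc6 and Trim30a passed the rule among the 6 genes of the ISG15 and ubiquitin pathway (median 0.796). Isg15 measured 17.9, 14.9 and 18.6 CPM untreated, 29.9, 36.3 and 29 CPM with FK866, 13.4, 10.4 and 13.3 CPM with FK866 and NR, and 17.6, 15 and 18.8 CPM with Ex527 added. It was 0.89 ± 0.12 higher with FK866 on the log2 scale, and with NR all 3 libraries lay under the untreated range. Usp18, the protease that removes ISG15, lay at a much lower level and went from 0.679, 1.07 and 0.551 CPM untreated to 1.43, 1.76 and 1.54 CPM with FK866, and its 3 libraries with NR, at 1.11, 0.699 and 0.495 CPM, overlapped the untreated ones. Its log2 fold change with FK866 of 1.02 ± 0.34 did not pass the rule. Trim25 and Dtx3l, both ubiquitin ligases, had log2 fold changes of 0.20 and 0.21.

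The IFIT family had the highest median of the 4-gene or larger groups, 1.35, and 2 of its 4 genes passed the rule. Ifit1, which binds RNA without a host cap, measured 11.3, 12.2 and 15.5 CPM untreated, 35.9, 37.5 and 37.6 CPM with FK866, 12.9, 13.2 and 16 CPM with FK866 and NR, and 15.1, 16.1 and 18.6 CPM with Ex527 added. The FK866 libraries lay far above all others, 2.84-fold over untreated (log2 1.51 ± 0.12). Ifit3, a partner of Ifit1, measured 1.28, 1.66 and 1.14 CPM untreated and 2.99, 2.87 and 3.47 CPM with FK866 (1.19 ± 0.25), and the near-identical Ifit3b may share its reads. Ifit2 stood 0.18 ± 0.07 higher with FK866 from a level of 33.7 to 34.3 CPM, so members of 1 cluster on chromosome 19 differed widely.

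In the OAS family, which senses double-stranded RNA, Oasl2 passed the rule. It measured 28.8, 30.3 and 29.4 CPM untreated, 61.3, 65.1 and 61.4 CPM with FK866, 35.3, 34.4 and 34.2 CPM with FK866 and NR, and 33.2, 39.3 and 37.6 CPM with Ex527 added. It stood 2.12-fold over untreated (log2 1.08 ± 0.07), and both groups with NR stayed above the untreated libraries. Oas1a, which holds 2 copies of the core right before its start, overlapped between groups, at 5.03, 4.43 and 4.49 CPM untreated and 6.15, 5.4 and 4.06 CPM with FK866 (0.16 ± 0.17). Oasl1 lay at 152 to 162 CPM untreated and at 203 to 225 CPM with FK866, under the fold threshold (0.46 ± 0.06). Oas2 and Oas3 had a mean of under 20 counts, with log2 fold changes of 1.12 and 1.27.

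The other antiviral effectors held 8 of the 19 calls, from 13 genes that could be fitted (Rsad2, Cmpk2, Mx2, Rtp4, Parp14, Isg20, Samd9l and Xaf1). Rsad2, which makes a chain-terminating nucleotide and is known as viperin, measured 2.52, 2.39 and 2.21 CPM untreated, 13.4, 11.8 and 13.4 CPM with FK866, 2.92, 2.49 and 2.76 CPM with FK866 and NR, and 3.58, 4.04 and 4.82 CPM with Ex527 added. It had the highest fold change of all 50, 5.43-fold (log2 2.44 ± 0.14), and every FK866 library lay above every other. Its neighbour Cmpk2, the kinase that supplies the substrate of viperin, followed on chromosome 12 at 0.879, 0.692 and 0.905 CPM untreated and 4.46, 4.63 and 3.74 CPM with FK866 (log2 2.37 ± 0.28). Cmpk2 is named although its mean count was under 50.

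Among genes of this role with a mean of at least 50 counts, Rtp4 and Parp14 followed Rsad2. Rtp4, an inhibitor of viral replication, measured 2.96, 3.56 and 3.27 CPM untreated, 8.2, 8.54 and 7.53 CPM with FK866, 2.97, 2.88 and 3.85 CPM with FK866 and NR, and 3.21, 3.72 and 3.31 CPM with Ex527 added (1.31 ± 0.14 with FK866). Parp14, an ADP-ribosyltransferase that uses NAD+ as its substrate, measured 4.59, 3.39 and 3.03 CPM untreated, 8.02, 7.03 and 9.65 CPM with FK866, 5.15, 4.46 and 5.76 CPM with FK866 and NR, and 5.5, 6.04 and 6.15 CPM with Ex527 added (1.17 ± 0.17). With NR the libraries of Rtp4 overlapped the untreated ones, whereas 2 of the 3 NR libraries of Parp14 lay above them. Bst2, the most abundant listed gene per length in untreated libraries, overlapped in every group, at 55.8, 49.6 and 66.3 CPM untreated and 57.9, 84.3 and 53.7 CPM with FK866 (0.19 ± 0.19). Parp9, the partner of Dtx3l, had a log2 fold change of 0.03.

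**Figure D2:**
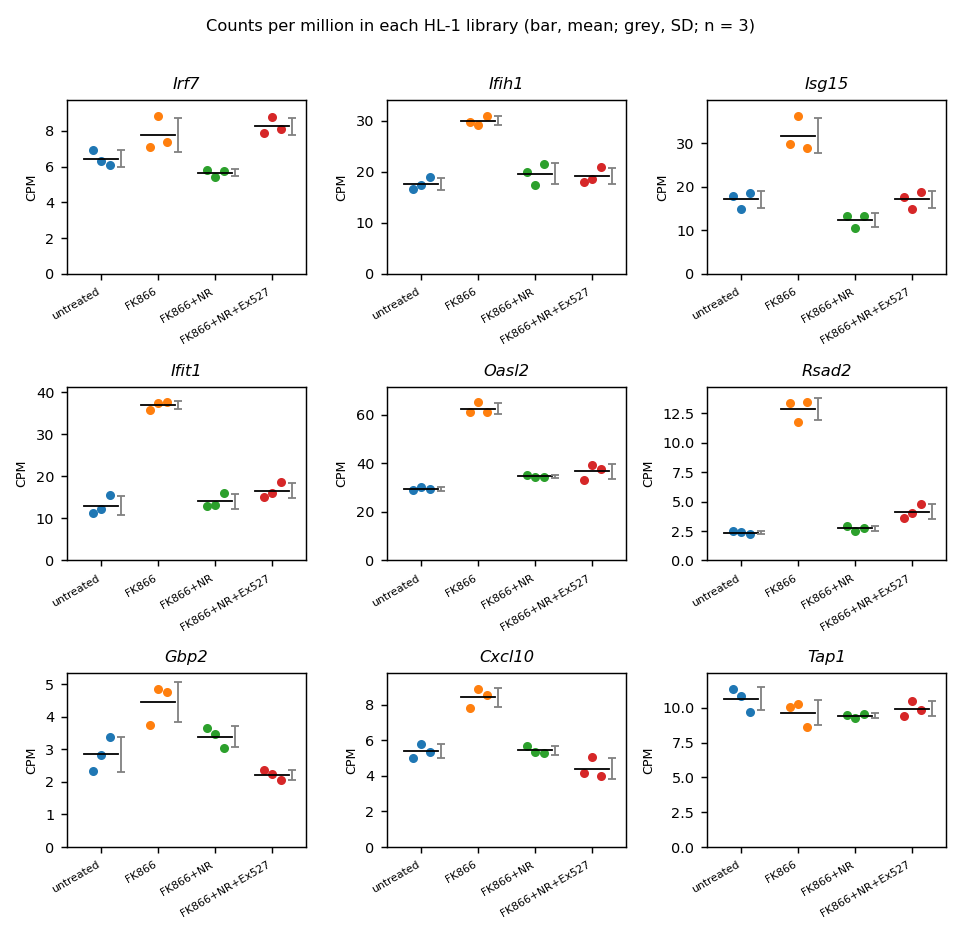
Level of 9 listed genes in the 12 HL-1 libraries, in CPM on a linear axis from 0; each point is 1 library, each black bar the mean of 3 and each grey bar their SD. Rsad2, Ifit1, Oasl2, Ifih1 and Isg15 stood highest in the 3 FK866 libraries, Irf7 was as high with Ex527, and Tap1 overlapped between groups.

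The 2 chemokines both passed the rule. Ccl5, which attracts T cells, measured 2.96, 3.49 and 4.09 CPM untreated, 9.4, 10.8 and 9.06 CPM with FK866, 2.09, 2.75 and 3.04 CPM with FK866 and NR, and 5.35, 4.89 and 3.85 CPM with Ex527 added. It stood 2.77-fold over untreated with FK866 (log2 1.47 ± 0.17). Cxcl10, a ligand of CXCR3, measured 4.99, 5.81 and 5.35 CPM untreated, 7.8, 8.88 and 8.55 CPM with FK866, 5.7, 5.33 and 5.26 CPM with FK866 and NR, and 4.13, 5.07 and 3.99 CPM with Ex527 added (0.64 ± 0.12). With Ex527 added neither gene passed the rule in edgeR, and a difference between the 2 was not tested. The Ex527 libraries lay above all 3 NR libraries for Ccl5, where 18.1% of all genes did so. They lay below them for Cxcl10, where 15.2% did so.

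Guanylate-binding proteins and immunity-related GTPases are best known as interferon gamma targets. Of the 7 GTPases that could be fitted, Gbp3 and Gbp7 passed the rule (median 0.361). Gbp3 measured 2.48, 2.35 and 2.52 CPM untreated, 4.86, 5.23 and 4.96 CPM with FK866, 1.44, 1.88 and 2.44 CPM with FK866 and NR, and 2.29, 2.17 and 2.12 CPM with Ex527 added (1.03 ± 0.17). Gbp2 measured 2.32, 2.84 and 3.39 CPM untreated and 3.74, 4.85 and 4.77 CPM with FK866, higher without overlap by 0.65 ± 0.18. Both guanylate-binding proteins coat vacuoles that hold pathogens, and they lie in 1 cluster on chromosome 3 with Gbp5 and Gbp7.

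Of the immunity-related GTPases, Irgm1 measured 15.3, 14.7 and 16.3 CPM untreated and 18.9, 19.8 and 20.8 CPM with FK866, above all 9 other libraries but under the fold threshold (0.36 ± 0.08). Igtp and Irgm2 overlapped between these groups. Igtp measured 4.99, 4.57 and 5.04 CPM untreated and 4.68, 6.39 and 4.73 CPM with FK866 (0.11 ± 0.15), and Irgm2, which holds the core, had a log2 fold change of -0.12 ± 0.12. None of the 3 antigen processing genes passed the rule, with a median of -0.143. Psmb8, a subunit of the immunoproteasome, measured 3.99, 4.15 and 4.17 CPM untreated and 4.28, 5.28 and 3.15 CPM with FK866 (0.04 ± 0.18). Tap1, a subunit of the peptide transporter, measured 11.3, 10.8 and 9.72 CPM untreated and 10.1, 10.2 and 8.59 CPM with FK866 (-0.14 ± 0.10). Psmb9 measured -0.45 ± 0.27 on the log2 scale with overlapping libraries.

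Listed genes with the core in a promoter window had a median log2 fold change with FK866 of 0.767 (19 genes, 9 past the rule), and those with a window but no core had 0.239 (20 genes, 6 past the rule). The ranges overlapped, from -0.12 to 2.44 and from -0.45 to 2.37. Cmpk2 and Oasl2 passed the rule without the core in their window, and Oas1a and Bst2 held it while their libraries overlapped. With NR the medians were -0.553 and -0.425. Both comparisons helped to choose the genes, so the split is a description and nothing is read from it. Ifi44, in the set without the core, was bound by the filter to lie higher with FK866.

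**Figure D3:**
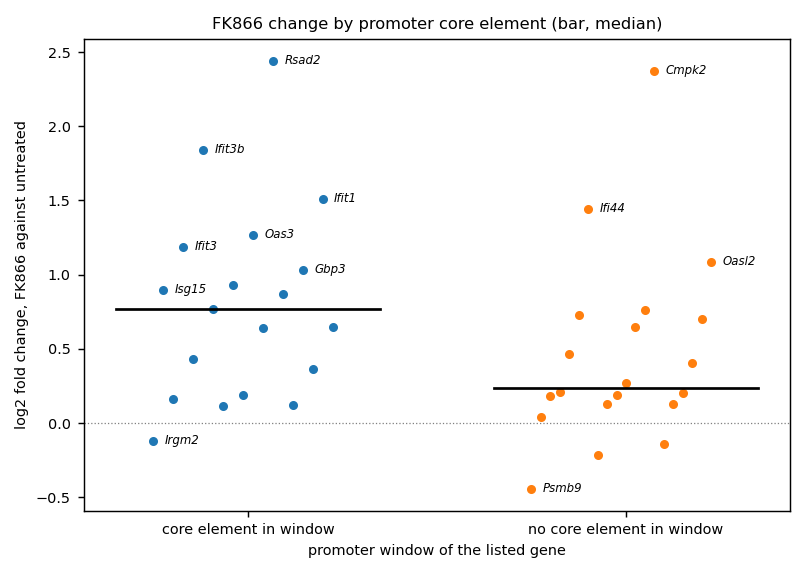
Log2 fold change with FK866 against untreated for the 39 listed genes that have a promoter window and could be fitted, split by the core of the interferon-stimulated response element (each point 1 gene, bar the median). The medians are 0.767 with the core and 0.239 without, and the ranges overlap. These values helped to choose the genes, so the split is a description.

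Interferon itself was barely seen in these libraries. Of 13 interferon genes, 10 had no count in any of the 12 HL-1 libraries, Ifng and 6 alpha interferons among them. Ifnb1, the first type I interferon made by many cells, had no count in the 3 untreated libraries and 1, 2 and 2 counts with FK866, and no more than 3 in any library. Counts this low do not allow a comparison, and a library with no count still allows up to 0.139 CPM at this depth.

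None of the 6 receptor genes passed the rule with FK866. Ifnar1 measured 95.5, 98.5 and 89.5 CPM untreated and 84.5, 76.9 and 95.2 CPM with FK866 (-0.14 ± 0.07, edgeR adjusted p = 0.157), and Ifnar2 fell by 0.37 on the log2 scale (edgeR adjusted p = 0.00335), short of 1.5-fold. None of the 12 genes of JAK-STAT signalling and its inhibitors passed it. The other receptors Ifngr1, Ifngr2, Il10rb and Ifnlr1 had edgeR adjusted p of 0.546, 0.215, 0.0289 and 0.514, each with under 1.5-fold.

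Of 22 other sensors, adaptors and IRFs with enough counts, 1 passed the rule, where 4.59% of all genes passed it in either direction. Irf5, a factor of Toll-like receptor signalling, was lower with FK866, from 27.2, 30.8 and 30.4 CPM to 15.6, 16.6 and 16.2 CPM without overlap (-0.87 ± 0.10, edgeR adjusted p = 1.461e-05). Of 13 NF-kB targets, 1 passed it, the inhibitor Nfkbie, which was higher (0.65 ± 0.15, edgeR adjusted p = 0.00445). Both went back toward untreated with NR, Irf5 by 0.56 (edgeR adjusted p = 0.000671), short of 1.5-fold, and Nfkbie by -0.61 (edgeR adjusted p = 0.00618). Nfkbie lost its call without 4 of the 6 libraries with FK866, and without 5 of the 6 with NR.

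A further list of 90 interferon-induced genes leaves out the 53 and so leaves out those that moved most. Of its 72 genes with enough counts, 5 rose with FK866, where 2.09% of all genes did, and 0 fell, where 2.5% did, and the median log2 fold change was 0.0819. Ddx60, a helicase of RNA sensing, rose from 7.87, 6.99 and 7.99 CPM to 18, 13.9 and 21 CPM (1.22 ± 0.14, edgeR adjusted p = 1.57e-05). Apol9a rose from 25.5, 26.1 and 30.9 CPM to 50.9, 59 and 48.5 CPM (0.94 ± 0.09, edgeR adjusted p = 4.27e-06), and its near-identical neighbour Apol9b rose with it by 0.84 ± 0.09 and may share its reads. Of the 72 genes, 40 lay above 0 and 32 below it.

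Markers of cell types moved in the same comparison. Of the 5 fibroblast markers with enough counts, 3 fell with FK866, Col1a2 by 1.47 (SE 0.12), Pdgfra by 0.96 (SE 0.12) and Col3a1 by 0.67 (SE 0.05) on the log2 scale, and the same 3 rose again with NR. None of the 3 macrophage markers with enough counts passed the rule. Tnnt2, a cardiac troponin, was 2.87 ± 0.46 higher with FK866 from a level under 0.2 CPM and lower again with NR (-2.12 ± 0.43). Of 2 genes listed as markers of plasmacytoid dendritic cells with enough counts, neither passed the rule with FK866. With NR Tcf4 was higher (0.67 ± 0.11) and Cox6a2 lower (-1.64 ± 0.32), and nothing about that cell type is read from them. The part of these markers in the result was not tested, and in bulk RNA fewer cells of a type cannot be told apart from less RNA per cell.

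With NR added to FK866, 16 listed genes passed the rule lower than with FK866 alone and 0 passed it higher, where 2.02% of all genes were lower and 2.79% higher. This comparison shares its FK866 libraries with the one against untreated and was also used to choose the genes. The log2 fold change was below 0 for 47 of the 50, with a median of -0.482 compared with 0.00553 over all genes. All 3 libraries with NR lay below all 3 with FK866 alone for 32 of the 50 (21.7% of all genes). Ifi44, which is among the 50, the 47 and the 32, passed the filter only through its FK866 libraries and was bound to lie lower here. Without replicate 1, the library with Lyz2, 15 listed genes and 584 of all 15002 genes then tested passed the rule in either direction, and the median was -0.501. Parp14 and Oas3 were then no longer called and Herc6 was.

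The 16 came from most roles, with Ifih1 among the sensors, Isg15, Ifit1 and Ifit3, Oas3 and Oasl2, Gbp3, both chemokines and 7 of the 13 other effectors. The log2 fold change was -2.24 ± 0.14 for Rsad2, -1.88 ± 0.17 for Ccl5, -1.39 ± 0.12 for Ifit1, -1.37 ± 0.18 for Gbp3 and -1.35 ± 0.13 for Isg15. Among genes with a mean of at least 50 counts, Rsad2, Ifit1 and Ccl5 thus had the 3 largest changes both with FK866 and with NR. Of the genes at the other end, Tap1 measured -0.03, Psmb8 -0.19, Bst2 -0.07 and Stat2 -0.10, none of them past the rule. Of the 19 genes past the rule with FK866, 15 were also past it with NR, and Herc6, Trim30a, Gbp7 and Samd9l were not.

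Those 19 genes lay near the untreated level once NR was present, with a median log2 fold change of 0.115 against untreated and a range from -0.46 to 0.59. Over all 50 the median of that comparison was 0.000244, with 25 genes above and 25 below 0. None passed the rule in edgeR or in DESeq2, where 0.901% of all genes did. An unadjusted p under 0.05 was found for 12 of the 50 and for 5797 of all 14760 genes tested. The largest differences among genes with a mean of at least 50 counts were those of Gbp7 (0.55 ± 0.21), Parp14 (0.49 ± 0.17), Isg15 (-0.46 ± 0.13), Ccl5 (-0.41 ± 0.18) and Trim30a (0.38 ± 0.24). Without replicate 1 of FK866 with NR no listed gene passed it either, and 0 of all 15002 genes then tested did, so the share of all genes given above rests on that library.

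Of the 72 genes of the longer list of interferon-induced genes, 5 fell with NR (Apol9a, Apol9b, Ddx60, Phf11d and Tor3a), where 2.02% of all genes did, and 1 rose, where 2.79% did, with a median of -0.174. Phf11d was no longer called without replicate 1 of FK866 with NR. Apol9a fell to 24.5, 23.6 and 23.1 CPM (-1.15 ± 0.09, edgeR adjusted p = 1e-06) and Ddx60 to 10.9, 9.66 and 9.08 CPM (-0.84 ± 0.13, edgeR adjusted p = 0.000334). Rnf213, a large ubiquitin ligase, rose from 149, 122 and 189 CPM to 343, 276 and 283 CPM (0.97 ± 0.18, edgeR adjusted p = 0.00126), opposite to the others. Of the JAK-STAT list only Ptpn6, a phosphatase, passed the rule (-0.74 ± 0.16, edgeR adjusted p = 0.00312), and it lost that call without 4 of the 6 libraries.

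With Ex527 added on top of FK866 and NR, none of the 50 listed genes passed the rule in edgeR, where 0.596% of all genes did. Without replicate 1 of FK866 with NR again none did. Of all 15002 genes then tested 51 passed it, compared with 88 of 14760. Among the 50, 12 had an unadjusted p under 0.05, as did 3430 of all 14760 genes. The median log2 fold change was 0.0775, compared with -0.000687 over all genes. Among genes with a mean of at least 50 counts Ccl5 had the largest difference, 0.83 ± 0.18, and it was the 1 gene that DESeq2, and edgeR without the filter on low counts, put past the rule. Its Ex527 libraries lay above the 3 with NR and below the 3 with FK866 alone. Rsad2 (0.61 ± 0.14), Zbp1 (0.57 ± 0.28) and Irf7 (0.54 ± 0.11) were higher and Gbp2 was lower, at 2.36, 2.23 and 2.05 CPM compared with 3.66, 3.45 and 3.04 CPM (-0.61 ± 0.18). For Rsad2 the Ex527 libraries remained far below the 11.8 to 13.4 CPM seen with FK866 alone. None of the 72 genes of the longer list passed the rule in this comparison. Of these 72, 18 had an unadjusted p under 0.05, where 3430 of all 14760 genes did. Of 5 fibroblast markers, all 5 had an unadjusted p under 0.05, 4 of them below 0 and 1 above it, at 0.307 (median -0.525). Col1a2 was the 1 that passed the rule (-0.74 ± 0.11), and the part of these markers in the values was not tested.

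In hearts all 53 genes had enough counts. They were listed mainly from the HL-1 libraries, but with results of the hearts known too, and Mx1, Gbp5 and Iigp1, with at most 6 counts in an HL-1 library, cannot have been listed for a change there. Calls here needed an edgeR adjusted p under 0.05 and an average of more than 5 counts. Iigp1, a GTPase that attacks vacuoles and a gene with too few counts in HL-1 libraries, lay at 98 to 244 CPM with a mean of 784 counts, the most of the 53. Rsad2 lay at 46.7 to 68.4 CPM in every heart, with overlapping groups.

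**Figure D4:**
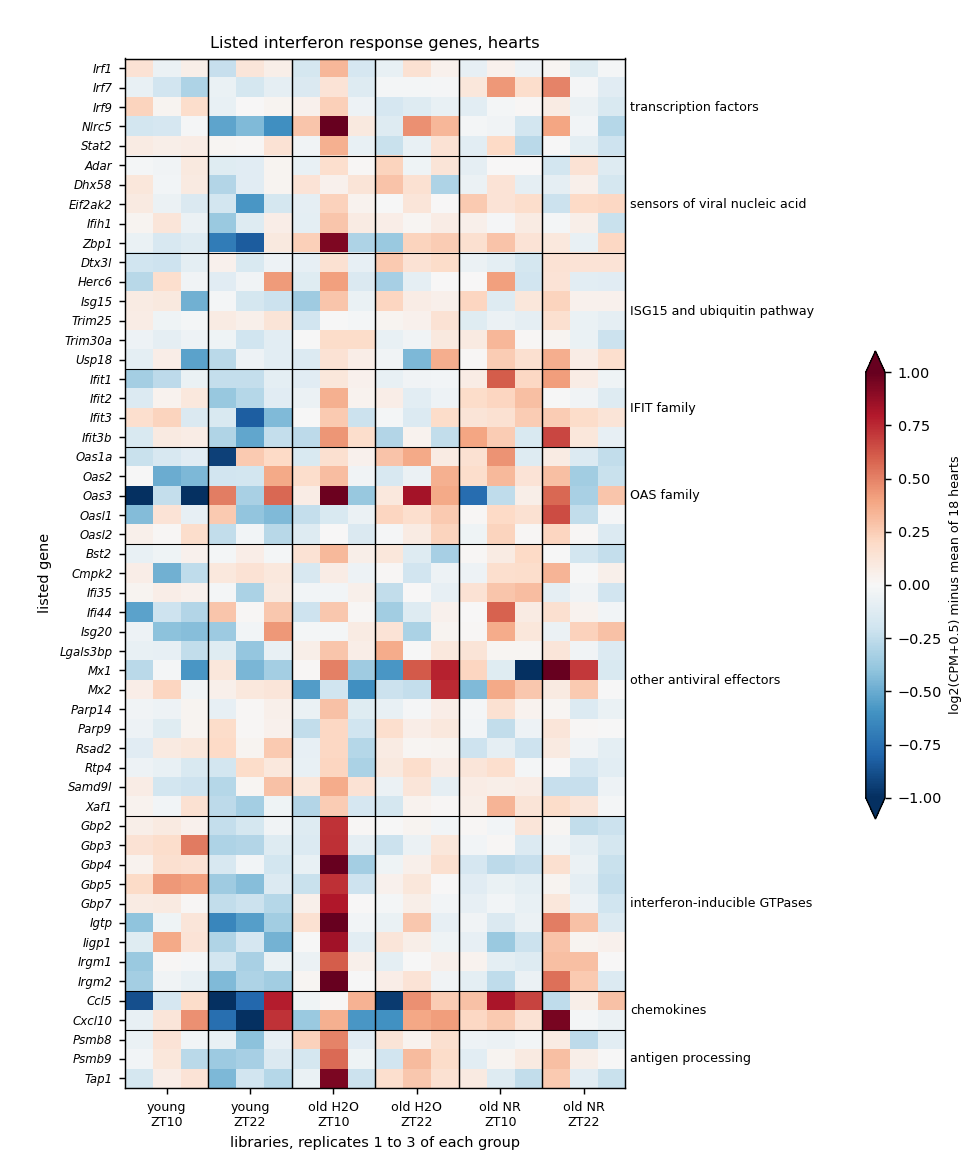
Heat map of the 53 listed genes (rows, by role) in the 18 hearts (columns, 3 per group). Colour is log2(CPM + 0.5) minus the mean of the 18 hearts, on a scale from -1 to 1, and replicate 2 of old H2O at ZT10 had the highest level for 27 of the 53 genes, all 9 GTPases among them.

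The heart that stood apart, replicate 2 of old H2O at ZT10, had 2903 CPM summed over the 53 genes, compared with 1854 to 2300 CPM in the others, and 1131 CPM over the 9 GTPases, compared with 493 to 730 CPM. Irgm2 measured 181 CPM there and 62.8 to 125 CPM elsewhere, and Igtp 108 CPM and 29.4 to 66.5 CPM. Its cell type markers lay within the range of the other hearts, with macrophage markers at 643 CPM (others 467 to 688), T and NK cell markers at 11.4 CPM (3.34 to 12.4), B cell markers at 38.5 CPM (25.7 to 47.2) and cardiomyocyte markers at 9513 CPM (8112 to 11640). Ifit1 and Rsad2 were not highest there, at 22.8 and 65.7 CPM, so the excess was not spread over the whole list. Because this heart was singled out for its levels of these genes, leaving it out lowers its group for them by choice, and values without it are given as a description.

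In young hearts 4 of the 53 genes differed between ZT10 and ZT22, where 14.4% of all 15443 genes tested did, in either direction. A fit of these 2 groups alone called 8. Gbp5 measured 45.2, 53.5 and 52.7 CPM at ZT10 and 30.7, 29.2 and 35.9 CPM at ZT22, higher at ZT10 by 0.66 ± 0.17 on the log2 scale (edgeR adjusted p = 0.012). Gbp3 measured 51, 52.1 and 66.2 CPM at ZT10 and 37.2, 37.7 and 42.2 CPM at ZT22 (0.52 ± 0.17, edgeR adjusted p = 0.0359), and neither gene overlapped. Ifit3 was higher at ZT10 by 0.58 ± 0.16 (edgeR adjusted p = 0.0156), although 1 library at each time measured 17.3 CPM. Ifi44, an antiviral gene of the same response, was lower at ZT10, at 11.4, 14.5 and 13.6 CPM compared with 20.4, 16.9 and 20.3 CPM (-0.54 ± 0.17, edgeR adjusted p = 0.038). All 9 GTPases had a fold change above 0, with a median of 0.313. Of the cell type markers, 2 of 11 for macrophages and 1 of 6 for fibroblasts were called higher at ZT10. Of 6 endothelial markers 1 was called lower and all 6 lay below 0. The part of these cell types was not tested. Leaving out 1 of the 6 hearts at a time gave 0 to 3 calls, with 0 without ZT10 replicate 2 and 1 without ZT22 replicate 2. Gbp5 kept its call except without those 2 hearts (edgeR adjusted p = 0.0519 and 0.0629), while Ifit3 lost its call without 3 of the 6, and Gbp3 and Ifi44 each without 5.

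In old H2O hearts none of the 53 differed between the times in edgeR or in DESeq2, where 4.2% of all genes did. By an unadjusted p under 0.05 the counts were 8 of the 53 and 2731 of all 15443 genes tested. The largest differences among genes with a mean of at least 20 counts were those of Mx2 (-0.71) and Igtp (0.52). Without replicate 2 at ZT10, the count was 2 (Dtx3l and Parp9), when 434 of all 15438 genes then tested passed the rule, and nothing is read from it. In old NR hearts 2 genes differed (5.37% of all genes): Ifi35 was higher at ZT10, at 30.5, 33.5 and 34.3 CPM compared with 25.9, 26.9 and 24 CPM (0.36 ± 0.10, edgeR adjusted p = 0.0319), and Dtx3l was lower, at 60.2, 58.8 and 55.6 CPM compared with 69.4, 69.2 and 69 CPM (-0.25 ± 0.07, edgeR adjusted p = 0.0353). DESeq2 called neither, Dtx3l lost its call without any 1 of the 6 hearts (edgeR adjusted p from 0.0629 to 0.168), and Ifi35 lost it without 4 of them, while a fit of these 2 groups alone called 4 listed genes.

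Old H2O hearts were compared with young hearts at each time. At ZT22, 5 of the 53 genes were higher, where 7.96% of all genes were, and 0 were lower, where 6.17% were. The share of listed genes is near that of all genes, and DESeq2 called 2 of the 53. Nlrc5 measured 23.2, 35.1 and 32.1 CPM in old hearts and 17.5, 18.6 and 16.5 CPM in young ones (0.81 ± 0.21, edgeR adjusted p = 0.0134), without overlap. That call was lost without old replicate 2 (edgeR adjusted p = 0.0672) or young replicate 3 (edgeR adjusted p = 0.0529). Lgals3bp, a secreted binder of galectin, measured 94.8, 73.2 and 79 CPM and 67.5, 55.9 and 69.5 CPM (0.35 ± 0.10, edgeR adjusted p = 0.0206). Dtx3l was higher by 0.25 ± 0.07 (edgeR adjusted p = 0.0194), Ifit3 by 0.51 ± 0.16 (edgeR adjusted p = 0.0346) and Eif2ak2 by 0.36 ± 0.11 (edgeR adjusted p = 0.0403). Lgals3bp and Dtx3l lost their calls without 2 of the 6 hearts each, and Ifit3 and Eif2ak2 without 3 each. The median over the 53 was 0.186 (-0.00470 over all genes), and 42 of the 53 lay above 0.

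Macrophage markers rose in the same comparison, with 6 of 11 called higher and all 11 above 0 (median 0.317). Mrc1 measured 113, 99.2 and 111 CPM in old and 57.6, 56.1 and 58.8 CPM in young hearts, and Cd68 19.4, 15.9 and 18.2 CPM and 8.07, 10.8 and 11.8 CPM. Lyz2 was the most abundant of the 11 in every heart. Markers of other cell types moved too. Of 6 endothelial markers Vwf was higher in old hearts (0.55 ± 0.13) and Tie1 and Egfl7 were lower (-0.37 ± 0.07 and -0.27 ± 0.07), of 6 fibroblast markers Lum and Pdgfra were higher (0.43 ± 0.10 and 0.34 ± 0.07) and Col1a1 was lower (-0.53 ± 0.09), and of 2 T and NK cell markers Cd3g was higher (1.88 ± 0.55, from a mean of 8.39 counts). None of the 10 cardiomyocyte markers was called. The part of these cell types in the 5 calls was not tested. Of the longer list of interferon-induced genes, 10 of 82 with enough counts rose, where 7.96% of all genes did, and 1 fell, where 6.17% did, and without young ZT22 replicate 2 only 4 of them were called. Of the 53 genes, 2 were called without that heart, and 3 each without young replicate 3 and old replicates 2 and 3.

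At ZT10, 1 of the 53 genes passed the rule (5.87% of all genes). A fit of the groups compared alone gave 4 calls. With a single heart removed the count was 0 to 3, at 2 without old replicate 1 and 3 without old replicate 3. Nlrc5 measured 30.8, 53.6 and 27.1 CPM in old H2O and 22.2, 22.6 and 25.1 CPM in young hearts (0.70 ± 0.20, edgeR adjusted p = 0.0435). That call was lost without old replicate 2, with a difference of 0.32 (edgeR adjusted p = 0.359), and without any 1 of the 3 young hearts (edgeR adjusted p from 0.089 to 0.125). Without old replicate 2, the heart singled out for its GTPase levels, Gbp5 measured 33.7 and 34.1 CPM compared with 45.2, 53.5 and 52.7 CPM in young hearts, a description with no test. The median over the 53 genes then went from 0.17 to -0.0368, and the number of all genes past the rule from 906 to 543. Among cell type markers, Adgre1 and Lyz2 of macrophages were higher in old hearts at ZT10 (0.56 ± 0.10 and 0.31 ± 0.07), and Tie1 and Col1a1 were lower (-0.25 ± 0.07 and -0.36 ± 0.09).

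The age by time interaction asks whether the difference between times changed with age. None of the 53 genes passed the rule in edgeR or in DESeq2 (6.89% of all genes). The unadjusted p was under 0.05 for 7 of them and for 3361 of all 15443 genes tested. The largest terms among genes with at least 20 counts were those of Mx2 (-0.71, edgeR adjusted p = 0.266) and Ifi44 (0.70, edgeR adjusted p = 0.0794). Without replicate 2 of old H2O at ZT10, 5 of the 53 genes and 844 of all 15438 genes then tested passed it, the 5 with terms below 0. The heart was chosen for its high GTPase levels, so nothing is read from their direction. The 5 were Gbp5 (-0.93 ± 0.14), Gbp3 (-0.61 ± 0.15), Gbp4 (-0.51 ± 0.14), Tap1 (-0.65 ± 0.19) and Iigp1 (-0.55 ± 0.16), given with no p for that reason. Without old ZT22 replicate 1 or young ZT22 replicate 1 the count was 2, and without young ZT22 replicate 2 it was 1. With 2 hearts left in a group, its spread is assumed to be that of the other groups.

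**Figure D5:**
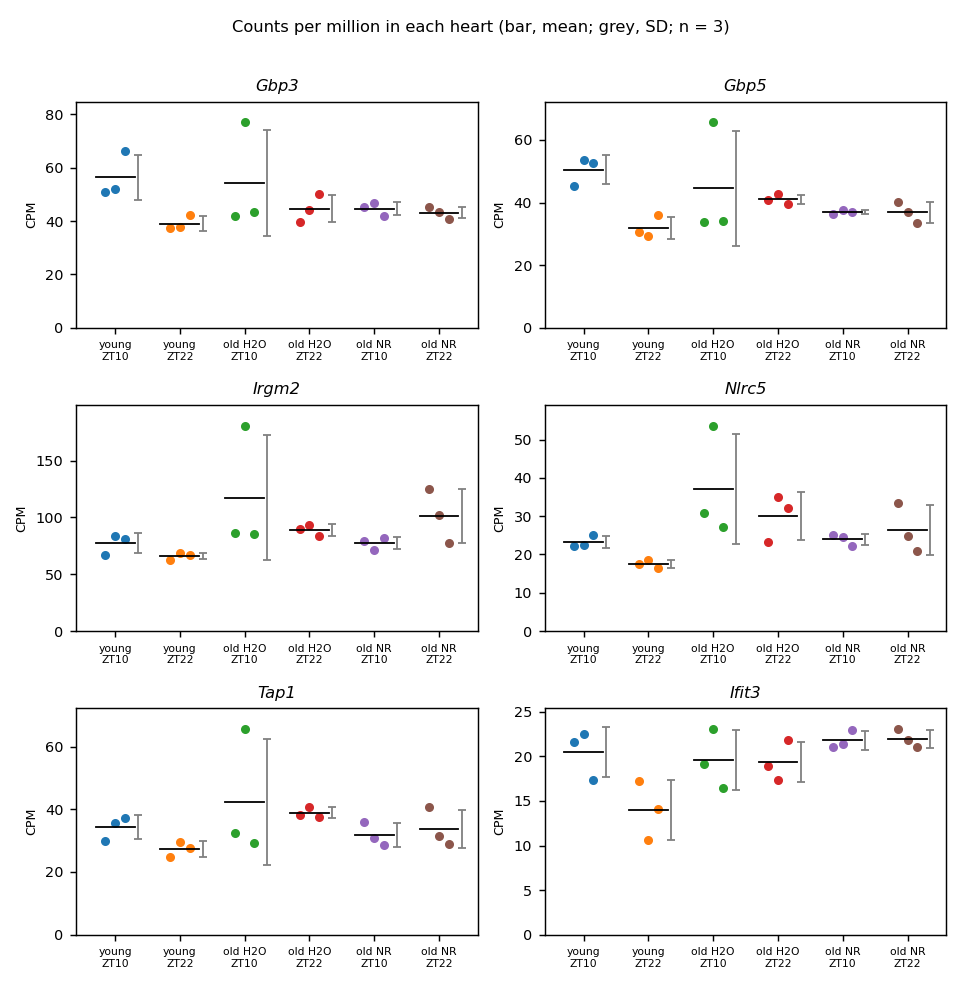
Level of 6 listed genes in the 18 hearts, in CPM on a linear axis from 0; each point is 1 heart, each black bar the mean of 3 and each grey bar their SD. Gbp3, Gbp5, Irgm2, Nlrc5 and Tap1 show 1 high heart in old H2O at ZT10, replicate 2, and Gbp5 lies higher at ZT10 than at ZT22 in young hearts.

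NR did not move the listed genes of old hearts past the rule. At ZT10 none of the 53 differed between old NR and old H2O hearts in edgeR or in DESeq2 (0.285% of all genes). Of the 53, 13 had an unadjusted p under 0.05, as did 1565 of all 15443 genes tested. Igtp (-0.66, edgeR adjusted p = 0.276) and Nlrc5 (-0.65, edgeR adjusted p = 0.198) had the largest differences among genes with a mean of at least 20 counts. All 9 GTPases lay below 0, with a median of -0.412, but without replicate 2 of old H2O the median was -0.0633, with 6 of 9 below 0. Without that heart 7 of the 53 genes had an unadjusted p under 0.05, as did 1496 of all 15438 genes then tested. The number of all genes past the rule went from 44 to 22. Of the 10 cardiomyocyte markers Sln and Myl7 were lower with NR at ZT10 (-2.69 ± 0.52 and -1.80 ± 0.33) and all 10 lay below 0, and Lyz2 of macrophages and Col3a1 of fibroblasts were lower too (-0.36 ± 0.07 and -0.65 ± 0.11). At ZT22 none of the 53 differed in edgeR or in DESeq2 (0.35% of all genes), and 0 had an unadjusted p under 0.05, where 1737 of all 15443 genes did. Ifit3b (0.39, edgeR adjusted p = 0.507) and Oas1a (-0.39, edgeR adjusted p = 0.604) had the largest differences at ZT22 among genes with a mean of at least 20 counts. Of the 11 macrophage markers 3 fell there, Csf1r by 0.53, Adgre1 by 0.46 and Mrc1 by 0.45 on the log2 scale, and Vwf, an endothelial marker, and Col1a1, a fibroblast marker, fell by 0.71 and 0.43.

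The NR by time interaction called none of the 53 in edgeR or in DESeq2 (0.343% of all genes). Its unadjusted p was under 0.05 for 4 of the 53 and for 1584 of all 15443 genes tested. Igtp (-0.83, edgeR adjusted p = 0.338) and Irgm2 (-0.80, edgeR adjusted p = 0.303) had the largest terms among genes with a mean of at least 20 counts. Irgm2 measured 86.5, 181 and 85.2 CPM in old H2O at ZT10, 89.4, 93.7 and 83.3 CPM at ZT22, and 79.5, 71.5 and 81.8 CPM and 125, 102 and 77.7 CPM in old NR hearts at the same times. Without replicate 2 of old H2O at ZT10 the median over the 53 went from -0.0189 to 0.16, and again none passed the rule. The median over the 9 GTPases then went from -0.485, with 9 below 0, to -0.0331, with 5 below 0.

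Receptors, signalling genes and sensors outside the 53 were also measured in hearts. At ZT10 in young hearts 6.8% of all genes were higher and 7.57% lower than at ZT22. Of 25 other sensors, adaptors and IRFs 2 were higher and 3 lower there, and of 6 receptor genes 1 was higher. Of 12 genes of JAK-STAT signalling and its inhibitors, 1 was higher and 3 were lower. Socs3, an inhibitor of JAK kinases, stood at -0.69 ± 0.17 (edgeR adjusted p = 0.00893), the phosphatase Ptpn2 at -0.43 ± 0.09 (edgeR adjusted p = 0.00172) and Tyk2 at 0.26 ± 0.07 (edgeR adjusted p = 0.0225). Ptpn2 was also lower in old H2O than in young hearts at ZT22, the 1 call of that list with age. Of 25 other sensors, adaptors and IRFs, 5 were higher and 2 lower in old H2O hearts at ZT22, where 7.96% and 6.17% of all genes were. Aim2, a sensor of DNA in the cytosol, was higher by 1.02 ± 0.27 (edgeR adjusted p = 0.0148) and Tlr7, a receptor for single-stranded RNA, by 0.93 ± 0.23 (edgeR adjusted p = 0.00899). Of the 6 receptor genes 1, Ifnlr1, was higher in that comparison (0.65 ± 0.18, edgeR adjusted p = 0.0175). None of these 3 lists had a call with NR at ZT10, with NR at ZT22 or in the NR by time interaction.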

How the data were processed

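HL-1 poly(A) libraries were sequenced as paired ends, and the submitters' notes name HISAT2 and build mm10; the counter, annotation release and strand setting are not given in the sources used here. Heart reads were, by the study's methods and notes, trimmed (Trimmomatic 0.39), aligned to mm10 (STAR 2.7.10a), freed of duplicates (Picard 3.0.0) and counted over exons (featureCounts 2.0.4). The authors deposited whole-number counts per gene for both experiments and FPKM for the HL-1 libraries. FPKM equalled counts per length and total within a ratio of 0.968 to 1.01. The heart table named as normalised held the raw counts. The table named as raw held a score, the counts the authors divided by size factors and rounded, and was used for gene symbols only. Duplicate removal, which can lower high counts, was applied to hearts, and listed genes' levels were not compared between experiments.

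Genes were filtered with filterByExpr in HL-1 libraries (14760 kept) and by an average of more than 5 counts in hearts (15443 kept). They were scaled by TMM and fitted per experiment over all groups with edgeR 4.0.16 (R 4.3.3, limma 3.58.1). The quasi-likelihood test was used, with Benjamini-Hochberg adjustment over all genes tested. Calls needed an adjusted p under 0.01 and over 1.5-fold in HL-1 libraries, or an adjusted p under 0.05 and more than 5 counts on average in hearts. The fit was tested on simulated data. The 53 members and the other lists were chosen with earlier results of these data known. Named genes in HL-1 libraries were 20 fixed representatives and, per comparison, the 5 largest changes among members with a mean of at least 50 counts; in hearts, up to 5 called members or else the 2 largest changes with at least 20 counts; in other lists, up to 3 called genes, ligands and receptors. Some genes of the JAK-STAT and sensor lists are not reported here. Genes named outside this rule were chosen after their values were seen. Alternatives were DESeq2 1.42.0 (also its size factors in edgeR), no or another filter, a replicate block, the compared groups only, and each library left out. Of the 53 gene identifiers 53 matched GENCODE M21 (GRCm38), and 26 of these genes overlap another gene, 13 of them a coding one; their reads may be shared. Exact permutation of 3 against 3 libraries cannot go below p = 0.1, so it was not used. Figures were drawn with matplotlib 3.10.9.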

Additional observations from a re-analysis of the deposited data

Results flagged for a closer look

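In hearts, 3 of the 82 genes of the longer list of interferon-induced genes had a difference between ZT10 and ZT22 that changed with age (edgeR quasi-likelihood interaction test, adjusted over all genes tested), where 6.89% of all genes did, so the list does not stand out. For 1 of the 82 it changed with NR, where 0.343% of all genes did. None of the 3 is among the 53 listed genes.

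Gbp6, a guanylate-binding protein, measured 12.8, 11.2 and 11.8 CPM at ZT10 and 15.5, 27.4 and 27.2 CPM at ZT22 in young hearts, and 24.4, 28.2 and 24.1 CPM at ZT10 and 17.8, 20.6 and 20.7 CPM at ZT22 in old H2O hearts. The order of the times was opposite at the 2 ages, with an age by time term of 1.35 ± 0.29 on the log2 scale (adjusted p = 0.0065). In old NR hearts it measured 9.64, 13.1 and 12 CPM at ZT10 and 34.5, 19.5 and 20.6 CPM at ZT22, the order of young hearts, and the NR by time term was -1.4 ± 0.28 (adjusted p = 0.024). Both terms share the old H2O hearts. Without old H2O replicate 2 at ZT10 Gbp6 was still called for the age by time term and no longer for the NR by time term.

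Ddx60 measured 14.9, 20.4 and 23.8 CPM at ZT10 and 11, 11.4 and 13.3 CPM at ZT22 in young hearts, and 14.1, 20.9 and 23.6 CPM and 20.2, 25.1 and 23.5 CPM in old H2O hearts, an age by time term of -0.958 ± 0.25 (adjusted p = 0.024). Ifi27 measured 45.6, 41.1 and 43.8 CPM at ZT10 and 49.3, 46.5 and 50.7 CPM at ZT22 in young hearts, and 53.3, 56 and 49.6 CPM and 35.1, 42.5 and 47.8 CPM in old H2O hearts, a term of 0.483 ± 0.13 (adjusted p = 0.03). Without old H2O replicate 2 at ZT10 Ddx60 was still called and Ifi27 was not. No explanation for these differences was tested.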

How the results depend on the processing

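With 3 libraries per group, leaving out 1 library moved the HL-1 counts of listed genes by under 1.5 times and some heart counts by more. Leaving out 1 library at a time, 14 to 16 listed genes (all libraries, 19) passed the rule with FK866 against untreated (median 0.562 to 0.627) and 11 to 16 with NR against FK866 (median -0.528 to -0.457), while 0 passed it with Ex527 added (median 0.00433 to 0.11) and 0 with FK866 and NR against untreated. In hearts the count between times was 0 to 3 in young, 0 to 2 in old H2O (median -0.0858 to 0.0934) and 0 to 1 in old NR hearts; old H2O against young it was 0 to 3 at ZT10 (median -0.0368 to 0.222) and 2 to 6 at ZT22, where 4 to 13 genes of the longer interferon list passed; for the age by time interaction it was 0 to 5 (median -0.214 to 0.0291). It was 0 throughout for NR at ZT10 (median -0.115 to 0.12), NR at ZT22 and NR by time (median -0.0579 to 0.16). By DESeq2 the counts were 1 for Ex527, 0 for old NR between times and 2 for age at ZT22; without the filter, 1 for Ex527 and 1 for old NR between times; with only the groups compared, 8 for young between times, 4 for old NR between times and 4 for age at ZT10. The cause was not tested. With 1 library left out, Ifnar2 with Ex527 ranged from -0.00402 (without FK866 and NR replicate 3) to 0.104. Without FK866 and NR replicate 1, no gene of the table passed the rule between that group and untreated, compared with 133.

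The main fits did not treat the replicate numbers as pairs. In HL-1 libraries same-numbered deviations correlated from -0.41 to 0.156 (median 0.0116) and differently numbered ones from -0.354 to 0.424 (median -0.00078). In hearts they correlated from -0.107 to 0.167 (median 0.027) and from -0.231 to 0.227 (median -0.01785). Whether the numbers pair the samples was not tested. The replicate block gave 18 listed genes with FK866, 15 with NR, 3 for old NR between times and 5 for age at ZT22, and moved no count by over 1.5 times. Of the values of single named genes, 1584 in HL-1 libraries and 237 in hearts were classed as unchanged, and 21 and 51 lost their call. In HL-1 libraries 2 more were classed as moved and 1 as reversed, that of Ifnar2 with Ex527. For listed genes in HL-1 libraries, the unchanged class is not read as calls kept. Parp14, for example, lost its call with NR without replicate 1 of FK866 with NR. At the depth of hearts the least expressed listed gene had a mean of 6.11 counts.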
